A study of Mus musculus with 6 samples.

Results

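The Wnt genes measured here are 50 genes of the Wnt pathway, namely secreted Wnt ligands, their frizzled receptors and Lrp co-receptors, secreted antagonists of the Sfrp, Dkk and Wif families, the proteins that hold β-catenin in check, and β-catenin itself with its TCF partners and the matrix proteins Wisp1 and Wisp2. They were chosen by gene name on the array, which gave 74 of 61307 probes and 50 of 50090 gene names, with 1 probe for 30 genes and several for 20. Tcf7l1 was part of the rule but matched no probe. NIH3T3 is a line of mouse embryonic fibroblasts, and by the labels and the study's methods all 3 groups came from it by retroviral transduction, geneticin selection and cloning, followed by growth in DMEM with 10% FBS. GFP cells carried GFP alone and served as the control, with 2 arrays. LT7 (long cells, 2 arrays) and ST7 (small cells, 2 arrays) both carried SIRT7 fused to GFP. All 3 were lines of single-cell origin, so clone and transgene cannot be told apart. The 2 arrays of a group held RNA from different passages of a line, and p-values measure only the spread between such arrays.

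Wnt ligands are lipid-modified secreted proteins that bind a frizzled receptor together with Lrp5 or Lrp6. Without ligand, β-catenin (Ctnnb1) is phosphorylated by a complex of Axin, Apc and Gsk3b and degraded, and with ligand it builds up and enters the nucleus, where it works with Lef1 and TCF factors on target genes. A second pool of β-catenin binds cadherins at cell contacts. Sfrp and Wif proteins bind Wnt ligands, whereas Dkk proteins such as Dkk1 and Dkk2, but not the divergent Dkk3, bind the Lrp co-receptors. Fibroblasts commonly express Sfrp genes and non-canonical ligands such as Wnt5a.

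Signals are the background-subtracted intensities of the scanner software before any scaling between arrays, and a probe was taken as measured where the software marked it well above background. The share of probes so marked was 53.5% to 57.5% on the GFP arrays, 47.4% and 47.5% in LT7, and 25.6% and 26.4% on the arrays labelled ST7, where the median signal was 3.32 and 3.78 against 18.0 to 25.6 elsewhere. Changes are given in log2 after subtraction of the 75th percentile of each array, which was 317 to 384 in GFP and LT7 and 16.3 and 17.1 on the arrays labelled ST7. After this shift the median change of all probes was 3.72 in ST7 against GFP (-0.68 without scaling) and 0.17 in LT7 against GFP. Over only the probes marked on both arrays of at least 1 group it was 0.71 in ST7 and -0.02 in LT7. A change below the median of all probes in ST7 can thus lie above that of measured probes. For ST7 the changes are therefore also described relative to the median of all probes or under 4 other scalings (none, quantile, spike-in RNAs, and a percentile over only those probes marked on every array). Both Sirt7 probes were bright in GFP and LT7 (2142 to 3633) and at 2.85 to 3.28, not well above background, on the arrays labelled ST7. They may not read the transgene, so they check the labels only in part. ST7 below means the arrays so labelled, and whether their RNA came from NIH3T3 cells was not tested. Markers of fibroblasts were well above background on both GFP and both LT7 arrays for 11 of 11 genes, but on both ST7 arrays for 5 of 11, and their summed signal was 333497 to 346683 in GFP and LT7 and 15092 to 16629 in ST7. Of 13 epithelial markers 4 were measured on both GFP arrays, 2 on both LT7 arrays and 6 on both ST7 arrays. The summed signal of the 13 was 325 to 516 in GFP and LT7 and 2119 to 2269 in ST7. Most of the sum in ST7 came from Krt18 alone, which read 1881 and 1755 there. Dsp and Epcam were, like Krt18, measured on both ST7 arrays and on no GFP array. Krt14 read 264 and 293 in GFP and 22.5 and 19.5 in ST7, and Krt8 123 and 62.2, then 15.3 and 5.82. Cdh1 was measured on no array. None of 4 endothelial markers was measured on any group's arrays, 2 of 4 leukocyte markers were in GFP and LT7 and none in ST7, and of 4 pluripotency markers only Sox2 was measured on both arrays of a group, ST7. The part of these marker differences in the Wnt results was not tested, and in bulk RNA fewer cells of a type and less RNA per cell cannot be told apart.

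Several results below turn on which probe of a gene was read, so the probes concerned are shown first, as given in the scanner files, 5′ to 3′. Each array probe is 60 bases long, and some are shown by their first 30 bases. The scanner files map none of the probes of these genes to a position. For β-catenin, Gsk3b and Fzd5, 1 probe of each gene was measured on both ST7 arrays (marked a) while another was not (marked b).
Ctnnb1 a, first 30 bases: ttctaagaaccgagtaatggtgtagaacac
Ctnnb1 b, first 30 bases: gaaggagatgttcatgtgtggaagtttctc
Gsk3b a: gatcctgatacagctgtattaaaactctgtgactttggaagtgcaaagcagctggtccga
Gsk3b b, first 30 bases: accagacaaaaatgtagacgagctttttaa
Fzd5 a: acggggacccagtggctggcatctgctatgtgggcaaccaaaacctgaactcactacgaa
Fzd5 b, first 30 bases: gtatctaaaagttgtggggtggagcggatg
Fzd9 and the brighter Dkk1 probe (a) had the largest log2 changes upward of the family in ST7, and the dim Dkk1 probe (b) did not follow.
Fzd9, first 30 bases: tatttaatgatgtaatttattgtggcattt
Dkk1 a, first 30 bases: tactgtgttgtaaatcctcagtgtggcact
Dkk1 b, first 30 bases: atgcagaaggaagcctgccaacttaagcca
The bright probe of Fzd2 and a probe of its relative Fzd7 read the same stretch of the 2 receptors, and bases identical in the ungapped alignment are in capitals.
Fzd2: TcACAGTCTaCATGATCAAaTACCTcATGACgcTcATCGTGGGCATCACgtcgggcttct
Fzd7: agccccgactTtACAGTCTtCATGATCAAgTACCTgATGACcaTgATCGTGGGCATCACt
These 2 probes overlap by 50 bases, of which 42 (84.0%) are identical, so signal for one receptor could include the other. Whether it did was not tested. On the ST7 arrays the Fzd2 probe read 901 and 979 and this Fzd7 probe 7.66 and 21.0. The Fzd7 signals given below are those of its brighter probe, which is not shown here.

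In GFP fibroblasts 29 of the 50 genes (58.0%) were well above background on both arrays, against 50.4% of all gene names on the array, noncoding ones included, each read on its brightest probe. The number was 24 (48.0%) in LT7, where the background was 42.2%, and 19 (38.0%) in ST7, where it was 23%. All 24 genes measured in LT7 were also measured in GFP. Of the 29 genes of GFP cells, 12 were at background on both ST7 arrays and 17 were measured on both. Another 2, Fzd9 and Dkk1, were measured on both ST7 arrays and on no GFP array. Among the 19 genes below this limit in every group, 14 were well above background on no array, and their range over all 19 was 2.70 to 38.2 in GFP, 4.01 to 16.0 in LT7 and 2.79 to 24.4 in ST7. They were Wnt2, Wnt2b, Wnt3, Wnt3a, Wnt4, Wnt6, Wnt7a, Wnt8a, Wnt8b, Wnt9b, Wnt10b, Wnt16, Fzd10, Sfrp4, Sfrp5, Wif1, Dkk4, Axin2 and Tcf7. The plot of single-array signals shows the others by role.

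**Figure D1:**
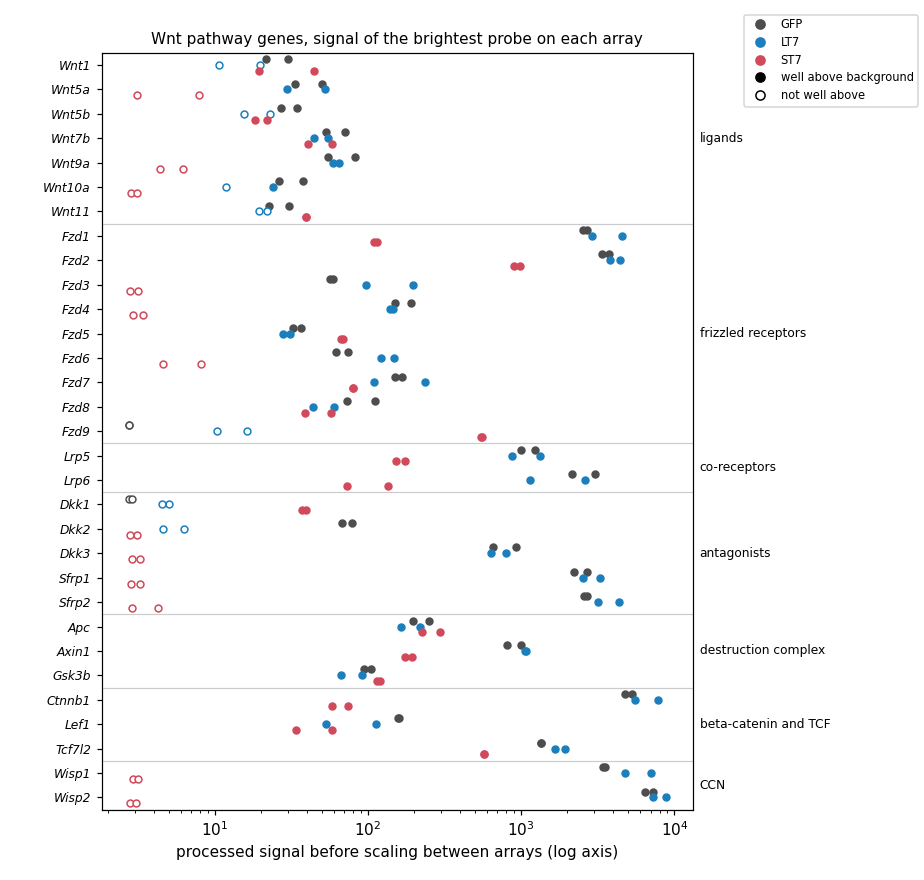
Processed signal (log axis, before scaling) of the brightest probe of 31 Wnt genes on each of the 6 arrays, grouped by role, with filled points for probes well above background. Sfrp1, Sfrp2, Wisp1 and Wisp2 lie between 2206 and 8825 in GFP and LT7 and at 4.27 or less in ST7, whereas Fzd9 lies at 555 and 550.0 in ST7 and at 16.3 or less elsewhere.

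The comparison of LT7 with GFP asks what the long SIRT7 cells changed. One of the 50 genes passed limma's test at an adjusted p under 0.05, the antagonist Dkk2, which was lower in LT7. None was higher. Over all probes 0.132% were called lower and 0.044% higher (here and below, genes are counted on their brightest probe and the background over single probes). At an unadjusted p under 0.05 there were 13 of 50 genes, where 27.2% of all probes passed, and 4 of the 13 were measured on both arrays of GFP or of LT7. A fold rule after the study's methods, read here as a log2 ratio of at least 0.8 on each array and a mean over 1, with no test, called 7 genes (14.0%, against 5.9% of all probes): Fzd3, Fzd6, Fzd9 and Wnt10b were higher and Dkk2, Tcf7 and Wnt8b lower. Fzd9, Wnt10b and Tcf7 were not well above background in either group, and Wnt8b only on 1 GFP array, so those 4 have no fold.

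Dkk2, a secreted ligand of Lrp5 and Lrp6 that can block or, in some settings, activate the receptor, read 78.6 and 68.1 on the GFP arrays and 6.30 and 4.57 in LT7. It was measured on both GFP arrays and on neither LT7 array, and the groups did not overlap. The log2 change was -3.67 (SE 0.22, adjusted p = 0.0223, limma), at least 3.24-fold lower in LT7. A second Dkk2 probe had 91.7 and 32.3 in GFP and 5.21 and 4.91 in LT7, a change of -3.33 (SE 0.43, adjusted p = 0.102) that did not pass the test. The call on the first probe was lost under several settings: the adjusted p was 0.27 without GFP replicate 1, 0.126 without GFP replicate 2 and 0.0712 without either ST7 array, and it was 0.251 with quantile normalization, 0.496 with spike-in scaling and 0.104 with replicate number as a block, while the change stayed at -2.88 or below in each of these. With normexp correction the change was -0.96 and the call was kept. On the ST7 arrays Dkk2 was at background too (2.81 and 3.13). The other genes of the antagonist families measured in fibroblasts were not lost in LT7. Sfrp1 had 2672 and 2206 in GFP and 3246 and 2516 in LT7 (change 0.33, SE 0.21, adjusted p = 0.393, and 0.84 on its dimmer probe, adjusted p = 0.136), and Sfrp2 had 2678 and 2553 in GFP and 4329.5 and 3185 in LT7 (change 0.60, SE 0.27, adjusted p = 0.235). Dkk3, a divergent Dkk relative, had 921 and 659 in GFP and 632 and 800.3 in LT7, which overlap.

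Among the receptors, Fzd3 and Fzd6, both linked to planar cell polarity, had higher values in LT7 without passing the test. Fzd3 went from 59.1 and 56.4 to 196 and 97.5 in signal, which is 2.56-fold or 1.36 in log2 (SE 0.34, adjusted p = 0.102). Its other probes gave changes of 0.92 and 0.83. Fzd6 went from 61.5 and 74 to 148 and 123, which is 2.14-fold or 1.1 in log2 (SE 0.34, adjusted p = 0.107). For both genes the 2 LT7 arrays lay above the 2 GFP arrays. Fzd1 was 2704 and 2522 in GFP and 4538 and 2877 in LT7 (change 0.57, SE 0.26, adjusted p = 0.25). The changes of Fzd2, Fzd4, Fzd5 and Fzd7 were 0.30, -0.14, -0.14 and 0.12, with adjusted p between 0.465 and 0.896, and the dimmer Fzd2 probe changed by 0.84 (SE 0.20, adjusted p = 0.102). Fzd8 had 111 and 73.0 in GFP and 43.8 and 60 in LT7, a change of -0.71 that missed the test (SE 0.34, adjusted p = 0.268). Of the co-receptors, Lrp5 changed by 0.06 (SE 0.26, adjusted p = 0.933), and Lrp6 by -0.46 (SE 0.53, adjusted p = 0.67) with 1 LT7 array well below the other (1145 and 2598, against 3009 and 2149.6 in GFP).

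The ligands were dim throughout. Wnt5a, which mostly acts through non-canonical routes, had 50.2 and 33.2 in GFP and 52.2 and 29.5 in LT7 (change 0.04), and Wnt9a had 82.3 and 55.0 in GFP and 59.6 and 64.6 in LT7 (change -0.02). Wnt7b changed by -0.21. These 3 ligands were measured on all GFP and LT7 arrays, and their groups overlapped on these probes. A second Wnt5a probe read 32.3 and 22.9 in GFP and 36.5 and 70.7 in LT7, with no overlap, a change of 1.00 that did not pass the test (SE 0.39, adjusted p = 0.176). Wnt1, Wnt5b and Wnt11 were measured on both GFP arrays and on no LT7 array. Wnt1 read 19.9 and 10.7 in LT7 against 21.6 and 29.9 in GFP, Wnt5b 15.5 and 23.0 against 27.0 and 34.4, and Wnt11 19.5 and 21.9 against 30.7 and 22.6. None of these ligands passed the test (adjusted p 0.371 for Wnt5b, 0.475 for Wnt1 and 0.548 for Wnt11). Wnt10a was measured on 1 LT7 array (23.9 and 11.8, against 37.5 and 26.4 in GFP, change -0.81, SE 0.35, adjusted p = 0.223).

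β-catenin was not called in LT7. Its signal was 5307 and 4737 in GFP and 7783 and 5490.5 in LT7, which is 1.40-fold or 0.48 in log2 (SE 0.26, adjusted p = 0.325). Its second probe read 4166 and 4544 in GFP and 6544 and 5363 in LT7, a change of 0.54 (SE 0.23, adjusted p = 0.209). On both probes the LT7 arrays lay above the GFP arrays in signal, without passing the test. In the destruction complex no gene passed the test, with Axin1 at 0.35 (SE 0.20, adjusted p = 0.349), Apc at -0.13 and Gsk3b at -0.24 on the log2 scale. Lef1, a nuclear partner of β-catenin and itself a known target, had 158 and 160.4 in GFP and 112 and 53.1 in LT7 (change -0.94, SE 0.43, adjusted p = 0.243), whereas Tcf7l2 had 1349.9 and 1343 in GFP and 1919 and 1656 in LT7 (change 0.50, SE 0.20, adjusted p = 0.196). Neither passed the test. The matricellular proteins Wisp1 and Wisp2 differed in size of change. Wisp1 read 3532 and 3394 in GFP and 7082 and 4758 in LT7, a change of 0.84 (SE 0.24, adjusted p = 0.103) with 0.85 on its second probe, and Wisp2 changed by 0.34 (SE 0.20, adjusted p = 0.362). The directions in this comparison are those after the percentile shift. When arrays were scaled on their spike-in RNAs, all probes had a median change of -2.05 in LT7, beside spike-in spots on LT7 replicate 1, scanned apart from the rest, that were 4.27 brighter in log2 than the other arrays, and this scaling turned the sign of every higher value in this comparison except that of Fzd9, which was 2.33 after the shift and 0.11 with the spike-ins.

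**Figure D2:**
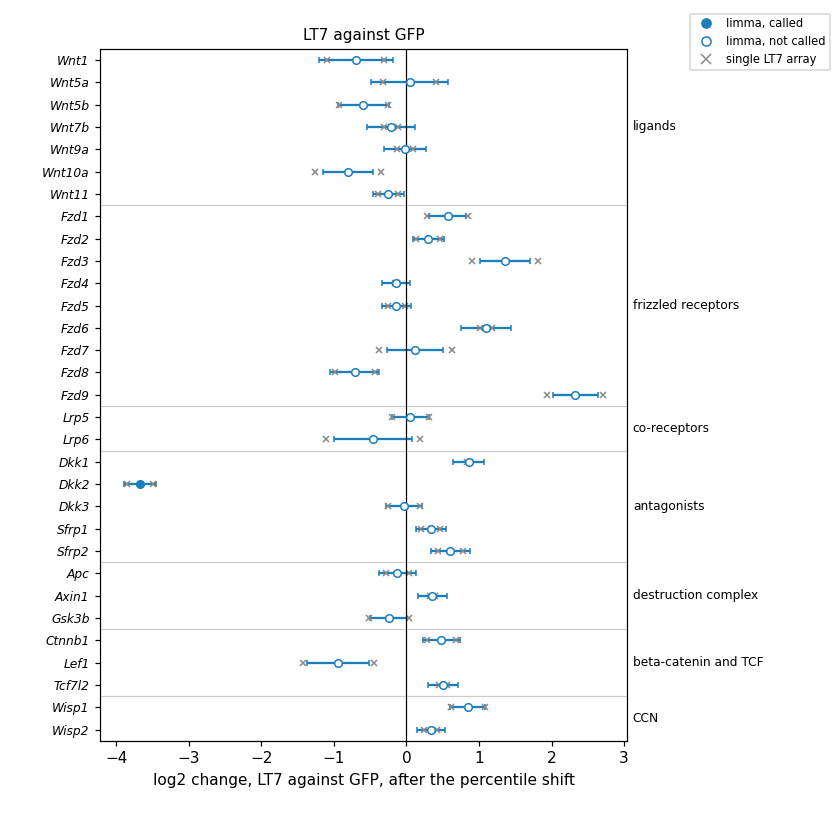
Log2 change in LT7 against GFP after the percentile shift for the 31 measured Wnt genes (circles with SE from limma, n = 2 arrays per group, filled where the adjusted p was under 0.05), with each LT7 array against the GFP mean as a cross. Dkk2 stands alone at -3.67, and both crosses of Fzd3 and Fzd6 lie above 0.

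On the arrays labelled ST7 the test called 37 genes higher and 7 lower than GFP after the percentile shift. Of all probes 70.7% were called higher and 19.8% lower, so the 74% and 14% of the Wnt genes were near the background. Against LT7 the counts were 37 and 9, where 71% of all probes were higher and 19.7% lower. Only 16 of the 37 higher genes were measured on both ST7 arrays, and of those 16, 7 were higher under all 5 scalings and 9 were lower under 1 or more. Here and below, such counts over scalings use only the sign of the change, with no test. Limma called 4 Wnt genes higher without scaling and 1 with spike-in scaling. Unscaled changes of those 7 ran from 0.21 (Wnt1), 0.22 (Apc) and 0.23 (Gsk3b) to 7.64 (Fzd9). Among them Apc, Gsk3b, Fzd5 and Dkk1 also had a probe at background in ST7. The same counts over all probes are not given. All 7 genes called lower were lower under all 5 scalings. The 7 were Sfrp1, Sfrp2, Dkk3, Wisp1, Wisp2, Fzd4 and Ctnnb1.

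The genes of the secreted antagonist families and the Wisp genes that were measured in the fibroblasts were at background in ST7. Sfrp1 read 2.85 and 3.24 against 2672 and 2206 in GFP, a change of -5.24 (SE 0.21, adjusted p = 1.68e-05), at least 7.82-fold lower. Sfrp2 read 2.88 and 4.27, a change of -5.14 and at least 8.42-fold lower, and Dkk3 2.91 and 3.24, at least 2.51-fold lower. For each the ST7 and GFP signals lay far apart. After the shift Wisp2 showed the largest fall of the 50 genes, from 7241 and 6381 to 2.81 and 3.09, a change of -6.77 (SE 0.20, adjusted p = 1.68e-05), at least 21.9-fold. Wisp1 went from 3532 and 3394 to 2.92 and 3.18, a change of -5.75 and at least 11.1-fold, and its second probe changed by -5.59. Relative to the median of all probes these 5 genes lay at -7.31 (Dkk3) to -10.49 (Wisp2) in log2. Of the 11 fibroblast markers given above, 10 were called lower in ST7 than GFP after the shift and 1, Vim, higher. Vim read 58774 and 57620 in GFP and 14612 and 16192 in ST7, a change of 2.48 that was -1.92 without scaling. Unlike these Wnt genes, 5 of the 11 markers stayed measured on both ST7 arrays.

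Dkk1, an antagonist that binds Lrp5 and Lrp6, went the other way. Its brighter probe read 36.9 and 39.6 in ST7, where alone it was measured, against 2.74 and 2.91 in GFP and 5.02 and 4.54 in LT7. The change was 8.16 (SE 0.21, adjusted p = 1.68e-05), at least 59.8-fold higher than GFP after the shift and 4.44 above the median of all probes. Under the other scalings it lay between 3.76 without scaling and 6.71 with quantile normalization, so the size of the fold depends on the scaling. The second Dkk1 probe, shown above as b, stayed at background in ST7 (2.82 and 5.41).

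Fzd9 had the largest rise of the 50 genes after the shift. Its single probe read 555 and 550.0 in ST7, against 2.78 and 2.76 in GFP and 10.3 and 16.3 in LT7, with no overlap between groups. The change against GFP was 12.04 (SE 0.31, adjusted p = 1.68e-05), at least 864-fold after the shift, and against LT7 9.71 (SE 0.31, adjusted p = 2.41e-05). Under the other scalings it lay between 7.64 without scaling and 10.10 with the percentile over measured probes. Fzd5 read 36.8 and 32.6 in GFP and 67.0 and 68.3 in ST7, a change of 5.36 (SE 0.20, adjusted p = 1.68e-05) and 1.64 above the median. On their brightest probes, Fzd9 and Fzd5 were the frizzleds higher under all 5 scalings. Fzd5 probe b was at background in ST7 (2.81 and 7.06, against 39.6 and 37.9 in GFP). Fzd2, Fzd7 and Fzd8 kept a measured signal in ST7 on their brightest probes, which was below GFP before scaling. Fzd2 read 901 and 979, Fzd7 read 80.4 and 79.8, and Fzd8 read 57.8 and 38.9. After the shift they were called higher by 2.48, 3.42 and 3.47, and without scaling they lay at -1.92, -0.98 and -0.93, so their direction depends on the scaling. A dimmer Fzd2 probe read 196 and 176 in GFP and 2.76 and 3.07 in ST7, at background. The dimmer Fzd7 probe read 139 and 132 in GFP and 7.66 and 21.0 in ST7, measured on 1 ST7 array. Fzd1 went from 2704 and 2522 to 115 and 110.3 in signal, a change of -0.14 after the shift (SE 0.26, adjusted p = 0.634) and -4.54 without it. Fzd3, Fzd4 and Fzd6 were at background in ST7, where Fzd3 read 2.80 and 3.16, Fzd4 read 2.92 and 3.41, and Fzd6 read 4.57 and 8.10. Only Fzd4 among them was called lower, at -1.35 (SE 0.19, adjusted p = 0.00117), with no fold because its GFP signal after the shift lay under the ST7 floor, and it stood at 0.54 with normexp background correction.

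The co-receptors stayed measured in ST7 on their brightest probes. A dimmer Lrp6 probe did not: it read 167 and 132 in GFP and 2.85 and 3.13 in ST7, at background. On the brightest probes, Lrp5 read 175 and 153 against 1229 and 993 in GFP, a change of 1.64 (SE 0.26, adjusted p = 0.00166) that was -2.76 without scaling, and Lrp6 read 134 and 72.9 against 3009 and 2149.6, with -0.29 (SE 0.53, adjusted p = 0.627). Relative to the median of all probes they lay at -2.08 and -4.01, although the 1.64 of Lrp5 was above the median of 0.71 for measured probes. Of the ligands, 4 were measured on both ST7 arrays. Wnt11 read 39.6 and 39.5 against 30.7 and 22.6 in GFP, Wnt1 19.5 and 44.3 against 21.6 and 29.9, Wnt7b 58.3 and 40.4 against 53.6 and 70.5, and Wnt5b 22 and 18.3 against 27.0 and 34.4. These signals were close to those in GFP although the arrays were dimmer, and the shifted changes were 4.99, 4.61, 4.06 and 3.80. Wnt11 and Wnt1 were higher under all 5 scalings, while Wnt7b and Wnt5b were at -0.34 and -0.60 without scaling. A second Wnt5b probe read 8.81 and 10.3 in GFP and 37.8 and 29.4 in ST7. Wnt5a, Wnt9a and Wnt10a were at background in ST7.

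**Figure D3:**
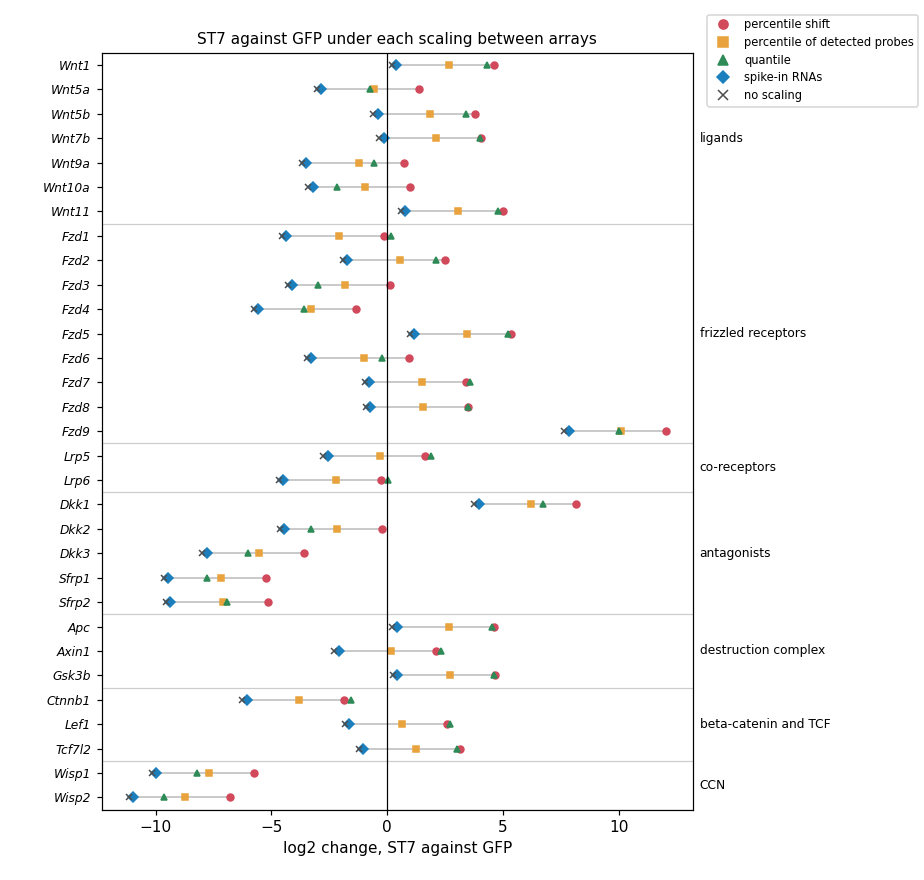
Log2 change on the arrays labelled ST7 against GFP for the 31 measured Wnt genes under each of 5 scalings between arrays, joined by a line. Fzd9 and Dkk1 lie above 0 and Sfrp1, Sfrp2, Dkk3, Wisp1, Wisp2 and Ctnnb1 below 0 under every scaling, while lines such as that of Fzd2 cross 0.

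β-catenin was one of the 7 genes called lower in ST7. The bright probe read 74.1 and 58.5, against 5307 and 4737 in GFP and 7783 and 5490.5 in LT7, and was measured on both of its arrays. The change against GFP was -1.85 (SE 0.26, adjusted p = 0.00103), 3.61-fold lower, and -5.57 relative to the median of all probes. Across the other scalings it lay between -6.25 and -1.56. Against LT7 it was -2.33 (SE 0.26, adjusted p = 0.000385). The second probe was at background in ST7 (2.78 and 3.11) and changed by -6.13 (SE 0.23, adjusted p = 1.68e-05). In the destruction complex, Apc and Gsk3b had signals close to those in GFP on their brightest probes only. Apc read 249 and 197 in GFP and 295 and 224 in ST7, and Gsk3b 105.01 and 93.6 in GFP and 114 and 119 in ST7, with changes after the shift of 4.62 and 4.63 that were 0.89 and 0.91 above the median. The other probes of Apc and Gsk3b were at background in ST7. The next Apc probe read 169 and 146 in GFP and 9.24 and 4.64 in ST7, and Gsk3b probe b 94.7 and 80.4, then 7.95 and 13.7. Axin1 went from 1000.4 and 802 to 195 and 175 in signal, 2.12 after the shift and -2.28 without scaling. Lef1 read 34.0 and 58.4 in ST7, and its change of 2.56 became -1.83 without scaling. Tcf7l2 read 571 and 569.7, and its change of 3.16 became -1.24. A dimmer Tcf7l2 probe, also measured on both ST7 arrays, read 62.9 and 49.0 in GFP and 60.4 and 59.6 in ST7. Its change was 4.51 after the shift and 0.11 without scaling.

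A ratio between 2 probes of the same gene does not change when a constant is taken off an array in log2, though it can change with quantile normalization. It was compared before scaling for the 14 Wnt genes with 2 probes well above background on both GFP arrays. The pair was the 2 brightest in GFP, the brighter over the dimmer. This comparison was chosen after the values were seen. In LT7 none of the 14 had 1 probe measured on both arrays and the other on neither, against 4.93% of 4954 such pairs over all genes, and no ratio differed from GFP by limma (0 of 14, and 0% of all pairs, with 1 of the 14 at an unadjusted p under 0.05). In ST7 this split was found for 6 (42.9%, against 30.4%): Apc, Ctnnb1, Fzd2, Fzd5, Gsk3b and Lrp6. The ratios that involve a probe at background have only a bound, for which the dim probe was set to the lowest signal well above background on its array, or to its own signal where that was higher.

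For β-catenin the log2 ratio was at least 2.41 and 1.91 on the ST7 arrays, against 0.35 and 0.06 in GFP and 0.25 and 0.03 in LT7, a change of at least 1.96. Gsk3b moved from 0.15 and 0.22 in GFP to at least 3.03 and 2.94, a change of at least 2.80. The change was at least 3.63 for Apc and at least 1.73 for Fzd2. In these 4 genes the probe that was brighter in GFP kept more of its signal. In Fzd5 the other probe did: probe b, with 39.6 and 37.9 in GFP, read 2.81 and 7.06 in ST7 while probe a read 67.0 and 68.3, so the ratio of b to a was at most -2.26 and -2.13, against 0.11 and 0.22 in GFP. For Lrp6 the bound lay under the ratio in GFP and gives no direction. Of these 14 pairs only that of Lrp5 had both probes measured on both ST7 arrays, and its ratio was 0.46 and 0.30 in GFP and 0.30 and 0.42 in ST7, a change of -0.02 (SE 0.18, adjusted p = 0.923). Sfrp1, Fzd3, Wisp1, Wnt5a and Dkk2 had both probes at background in ST7. Fzd7 and Tcf7l2 had their dimmer probe measured on 1 ST7 array. A further Tcf7l2 probe, outside these pairs, was measured on both GFP and both ST7 arrays. Its change after the shift was 4.51, against 3.16 on the brightest Tcf7l2 probe. After the percentile shift the change was 2.48 on one Fzd2 probe and -1.59 on the other, and 4.62 and -0.19 on the 2 Apc probes. In sequence, 13 of the 19 Wnt probes measured on both GFP and both ST7 arrays had a reading frame free of stop codons (68.4%), as did 18 of the 24 measured on both GFP arrays and no ST7 array (75%), and the median GC content was 48.3% and 38.3%. Among all probes for protein-coding transcripts the shares were 88.1% and 76.9%, with a GC content of 45.0% and 41.7%.

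**Figure D4:**
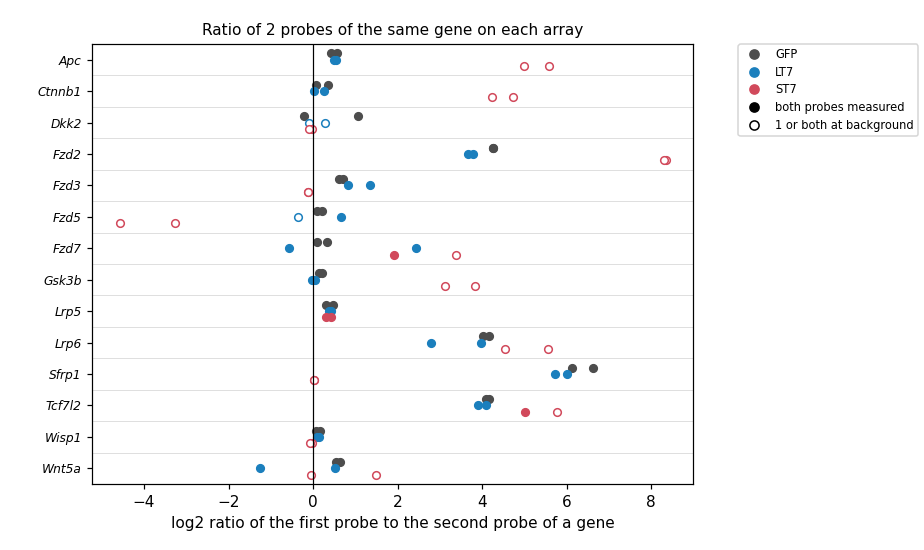
Log2 ratio of the 2 probes that were brightest in GFP for 14 Wnt genes, 1 point per array, open where 1 or both probes were not well above background, so that the open points are no exact ratios. GFP and LT7 points lie close together for most genes, open ST7 points lie apart from them for Apc, Ctnnb1, Fzd2, Gsk3b and, on the other side, Fzd5, and the Lrp5 points of all 3 groups lie between 0.30 and 0.46.

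Other genes of the pathway were followed as whole lists, drawn up by function. In LT7 limma called none of 17 genes of Wnt secretion, R-spondin and further co-receptors, 32 of the cytoplasmic and nuclear pathway, 12 of planar cell polarity, 26 textbook targets of β-catenin (4 of them members) and 17 adherens junction partners. At an unadjusted p under 0.05, which 27.2% of all probes passed, the numbers were 4, 5, 3, 7 and 7, of which 2, 3, 3, 3 and 3 were measured on both arrays of GFP or of LT7, and the median changes were 0.19, 0.18, 0.34, 0.26 and 0.55 beside 0.17 for all probes. Axin2, the target most often used as a readout of β-catenin activity, was measured on no array (GFP 4.53 and 2.70, LT7 4.67 and 4.65, ST7 5.17 and 3.19), and neither were Sp5 and Nkd1.

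In ST7 most of those genes measured in GFP were no longer so: 9 of 17 secretion and co-receptor genes were measured on both GFP arrays and 3 on both ST7 arrays, 29 and 14 of 32 cytoplasmic and nuclear genes, 12 and 4 of 12 polarity genes, 16 and 5 of 26 targets, and 11 and 3 of 17 adherens partners. The array as a whole fell too, from 50.4% of all gene names measured on both GFP arrays to 23% on both ST7 arrays. The median changes of the 5 lists were 4.10, 0.86, 0.86, 3.33 and -0.18. The median was 3.72 for all probes and 0.71 for those measured on both arrays of at least 1 group. In the same order, limma called 11, 16, 6, 14 and 7 of the list genes higher and 3, 10, 4, 9 and 8 lower, where 70.7% and 19.8% of all probes were called. Of the genes called higher only 2, 12, 4, 4 and 2 were measured on both ST7 arrays. Ascl2 had no value on either ST7 array. Of the cytoplasmic and nuclear genes measured in ST7, the casein kinase Csnk1e was highest by change, with 16956 and 16386 in GFP and 57606 and 54041 in ST7 (6.14, and 1.74 without scaling), ahead of the co-repressors Tle4 (5.92 and 1.52) and Ctbp2 (5.29 and 0.89). Lowest were Csnk1g2 (-3.40 and -7.80), Tle2 (0.71 and -3.68) and Csnk1a1 (1.01 and -3.39). Among the polarity genes Vangl1 went from 228 and 171 to 1331 and 1162 (7.05 and 2.65), and Celsr2 had 41.8 and 47.1 in GFP and 47.2 and 46.4 in ST7 (4.48 and 0.0761). Mapk8 (129 and 127, then 70.1 and 66.2) and Rhoa (2825 and 3349, then 686 and 892) had lower signals in ST7, with changes of 3.49 and 2.42 after the shift and -0.91 and -1.98 without scaling. The receptor kinase Ror2 had 155 and 127 in GFP and 341 and 316 in ST7 (5.63 and 1.23), the ubiquitin ligase Rnf43 lay at 4.43 and 0.0289, and Ptk7 at 0.90 and -3.50. The targets measured in ST7 were Cdx1 (7.46 and 3.06), Id2 (5.10 and 0.70), Rnf43, Lef1 and Ephb3 (-0.50 and -4.90), while Myc (5114 and 5406 in GFP, 2.85 and 3.20 in ST7) and Ccnd1 (2902 and 3094, then 3.40 and 3.99) were at background. Of the partners of β-catenin at adherens junctions, Cdh4 was measured in ST7 alone (85.5 and 69.7, against 2.74 and 2.89 in GFP, 9.18 and 4.78), Pvrl2 lay at 3.54 and -0.86 and Pvrl1 at -1.82 and -6.22. Ctnna1, which links β-catenin to actin, read 3.60 and 7.85 in ST7, at background, against 15879 and 12166 in GFP and 22424 and 11728 in LT7. Sp5, Nkd1, Myc, Ccnd1 and Ctnna1 were named after their values were seen, and where a gene of these lists has a pair of changes, they are log2 values after the percentile shift and without scaling.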

How the data were processed

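RNA of GFP, LT7 and ST7 cells was read on 6 Agilent 8x60k arrays, 2 for each group and 1 dye (Cy3). The authors used Agilent Feature Extraction, which subtracts the background, and the deposited signal is its processed intensity. The authors also deposited log2 values after a percentile shift in GeneSpring, which served as an alternative. They differed from the values used here by a constant of at most 0.0246 per array, and beyond it by more than 0.01 for 5 to 13 probes per array. Spots marked as outliers and controls were left out, spots of a probe were averaged in log2, and each array's own 75th percentile was then taken off. Groups, taken from the sample labels, were compared by a limma fit over the 6 arrays (version 3.58.1, under R 4.3.3), with Benjamini-Hochberg adjustment over 61307 probes and a threshold of 0.05. The script was tested on simulated data. A gene was counted on its brightest probe over the 6 arrays, and named with values where the scanner marked that probe well above background on both arrays of any group (31 genes). From the other lists the 3 highest and 3 lowest ST7 changes among measured genes were named, and any gene called in LT7. "At least" folds compare the brighter group's mean with, per array of the dimmer group, the higher of the lowest signal well above background and the probe's own, after the shift. Alternatives were other scalings, normexp background correction (offset 50), a filter on dim probes, a replicate block and leaving out each array. Of the 2 scans, 1 held LT7 replicate 1 alone, so a fit without that array is the fit within the other scan. Members and lists were chosen with earlier results of these data known. The number of arrays limits the precision.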

Additional observations from a re-analysis of the deposited data

How the results depend on the processing

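In LT7 against GFP no gene was called higher by limma under any of the 14 alternatives, and all 31 measured genes kept their side of the threshold except Dkk2. The 1 gene called lower (Dkk2) became 0 with quantile normalization, spike-in scaling, the replicate block and without either GFP or either ST7 array (range over left-out arrays 0 to 1). The fold rule's 7 genes became 3 with quantile normalization, 0 with normexp correction, 4 with only measured probes, and 6 to 11 with 1 array left out. The 37 genes higher in ST7 than GFP became 4 without scaling, 1 with spike-in scaling, 20 with quantile normalization and 18 with only measured probes tested, and 35 to 37 with 1 array left out. The 7 lower genes were 23 without scaling, 13 with the percentile over measured probes and 11 with quantile normalization. For ST7 against LT7 the 37 became 4, 2, 21 and 18 in the same order, and the 9 lower genes became 24 without scaling and 5 with spike-in scaling.

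The sign of the ST7 change turned for the following genes, in log2, where the change passed the test before or after. A sign also turned with no call in either setting against GFP for 3 genes with spike-in scaling, 4 with quantile normalization and 1 with the percentile over measured probes, and against LT7 for 3, 2 and 1. Without scaling it became Axin1 -2.28, Fzd2 -1.92, Fzd3 -4.28, Fzd6 -3.47, Fzd7 -0.98, Fzd8 -0.93, Lef1 -1.83, Lrp5 -2.76, Tcf7l2 -1.24, Wnt10a -3.40, Wnt5a -3.04, Wnt5b -0.60, Wnt7b -0.34 and Wnt9a -3.69 against GFP, and Axin1 -2.53, Dkk2 -0.85, Fzd2 -2.12, Fzd7 -1.0028, Fzd8 -0.11, Lef1 -0.79, Lrp5 -2.71, Lrp6 -4.12, Tcf7l2 -1.64, Wnt10a -2.50, Wnt5a -2.98, Wnt7b -0.0281 and Wnt9a -3.57 against LT7. With spike-in scaling it became Axin1 -2.09, Fzd2 -1.74, Fzd6 -3.29, Fzd7 -0.79, Fzd8 -0.74, Lef1 -1.65, Lrp5 -2.57, Tcf7l2 -1.05, Wnt10a -3.22, Wnt5b -0.42 and Wnt7b -0.16 against GFP, and Axin1 -0.23, Lrp5 -0.41 and Wnt10a -0.20 against LT7. With quantile normalization it became Fzd3 -2.98, Fzd6 -0.23 and Wnt10a -2.19 against GFP, and Dkk2 -0.41 and Wnt10a -1.67 against LT7. With the percentile over measured probes it became Fzd3 -1.82, Fzd6 -1.01, Lrp5 -0.30, Wnt10a -0.94 and Wnt9a -1.23 against GFP, and Axin1 -0.16, Lrp5 -0.34, Lrp6 -1.75, Wnt10a -0.12 and Wnt9a -1.19 against LT7. With normexp background correction it became Dkk2 1.27 and Fzd4 0.54 against GFP, and Fzd3 0.53, Fzd4 0.58, Fzd6 0.76 and Lrp6 -1.18 against LT7. Replicate numbers were not used as pairs in the main fit. Deviations of same-numbered arrays correlated at 0.11 for GFP and LT7, 0.07 for GFP and ST7 and -0.04 for LT7 and ST7. With 2 arrays per group this cannot decide whether same-numbered arrays were handled together. The replicate block gave 0 genes lower in LT7, 38 higher and 7 lower in ST7 than GFP, and 38 and 8 in ST7 against LT7. With 2 arrays per group the precision is low, and signal at background in ST7 leaves only bounds. The cause of these changes was not tested.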
